A study of Mus musculus with 10 samples.

Results

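The distal end of mouse chromosome 11 carried a dense string of HEB peak summits in a mouse mammary epithelial line, Comma-Dβ. The members are every summit on chromosome 11 beyond 110000000 in the genome build mm10, taken from the 2 summit lists that the authors deposited. These were 333 of the 1489 summits after Id4 knockdown (siID4) and 57 of the 560 summits with a non-targeting siRNA (siNT), or 390 of 2049 in all. The stretch was chosen because it is crowded, from these same positions, so its number of summits, density and spacing are given as a description and were not tested.

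HEB chromatin immunoprecipitation was sequenced from 3 libraries per siRNA, and 4 input libraries, listed without siRNA or antibody in the labels, served both arms. All cells were Comma-Dβ at passage 28. Cells of the siID4 arm received the siGENOME SMARTpool against mouse Id4 and cells of the siNT arm the ON-TARGETplus non-targeting pool, each at 20 nM, and both were harvested 48 h after transfection. With 1 list per siRNA, the spread between libraries cannot be given. Intervals in parentheses are exact 95% intervals for counting error only, and library depth is unknown. Summits are not replicates of a treatment, and input coverage, mappability and DNA copy number of the stretch were not analysed here.

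HEB, the product of Tcf12, is an E protein: a basic helix-loop-helix transcription factor that binds DNA as a dimer at E-boxes, short sites that read CANNTG. ID4 is a helix-loop-helix protein that lacks the basic DNA-binding part and pairs with such factors, and it is known in the mammary gland from basal epithelial cells. A peak summit is the single base at which a peak caller places the top of an enriched stretch, and the score beside it ranks that peak within its own list.

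Only the highest site of the stretch fell in an annotated promoter in both lists. It lies in the promoter of H3f3b, a gene of the histone variant H3.3, and scored 286 in siID4 (position 116024732, rank 5 of 1489) and 190 in siNT (position 116024705, rank 8 of 560). Of the 308 RefSeq promoters of the stretch (250 bases before to 50 after a transcription start, GRCm38.p6, the assembly behind mm10), 2 held an siID4 summit and 1 held an siNT summit. The other was a promoter of Gm12589, with an siID4 summit of score 1.52 at position 121777710, in the lowest 3.90% of its list. Both promoters are printed 5′ to 3′ on the strand of the gene because they are the only sequences in which a summit of the stretch can be placed at a start site here; capitals mark E-boxes (CANNTG, which reads as CANNTG on both strands) and CCAAT words (CCAAT or ATTGG, its reverse complement).
H3f3b, chr11:116024455-116024754, minus strand: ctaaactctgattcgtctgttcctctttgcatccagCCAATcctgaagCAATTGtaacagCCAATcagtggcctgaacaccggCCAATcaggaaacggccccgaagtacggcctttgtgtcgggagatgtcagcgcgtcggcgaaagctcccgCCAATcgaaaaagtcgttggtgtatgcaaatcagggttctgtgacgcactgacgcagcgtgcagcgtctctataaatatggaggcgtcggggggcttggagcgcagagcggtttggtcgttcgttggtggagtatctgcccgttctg
Gm12589, chr11:121777499-121777798, plus strand: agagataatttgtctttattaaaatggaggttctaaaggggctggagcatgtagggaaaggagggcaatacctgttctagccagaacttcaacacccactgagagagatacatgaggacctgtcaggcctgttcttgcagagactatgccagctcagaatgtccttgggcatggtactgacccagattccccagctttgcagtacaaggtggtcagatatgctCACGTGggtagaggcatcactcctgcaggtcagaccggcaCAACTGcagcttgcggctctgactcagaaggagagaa

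The H3f3b window holds 1 E-box, CAATTG, and the siNT summit lay 2 bp from its centre and the siID4 summit 29 bp from it. Relative to the start used in the table, the summits stood at -201 in siNT and -228 in siID4; RefSeq also draws the gene further upstream, so both positions count as inside the gene. An E-box occurs in 72.3% of the 32851 promoters of the table, so its presence in a window of 300 bases is common. The same window holds 4 CCAAT words, a number that 1.06% of the promoters reach or exceed; this word was searched after the sequence was seen. In the Gm12589 window the siID4 summit lay 15 bp from the centre of the nearer of 2 E-boxes, and 39.6% of promoters hold at least 2. A match of letters is a description of the window and not a binding site.

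The crowding began close to 110 Mb and ran to the end of the annotated chromosome. In bins of 1 Mb, the fullest bin between 5 and 100 Mb held 6 siID4 and 4 siNT summits, in both lists the bin that starts at 99 Mb. The first 5 Mb, left out of this reference, held 7 siID4 and 6 siNT summits, all in the bin from 3 to 4 Mb. From 110 Mb on, all 12 bins of the siID4 list held more than the reference bin, between 10 and 69 summits. In the siNT list the 12 bins held 0 to 12 summits, and 7 of them held more than the reference bin. Only the siNT bin from 118 to 119 Mb, with 12, held more than the 6 of the bin from 3 to 4 Mb. No 5 siNT bins above the reference followed each other. The rule used for the start (5 bins in a row above the fullest bin) therefore gave 110 Mb in siID4 and no start in siNT. With bins of 2 Mb it gave 110 Mb in both lists, and with bins of 500 kb 113.5 Mb in siID4 and no start in siNT.

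At finer scale siID4 summits drew closer just before the border. Closer neighbours also occurred elsewhere on the rest of the chromosome, down to 745 bp apart. Between 103707265 and 109682414 the siID4 list held 2 summits, both inside Prkca, which encodes a protein kinase C. A summit inside Fam20a at 109682414, after an empty 1.47 Mb, was followed by others at 109766789, 109790637 and 109982204, the last inside Abca8b and 17796 bp outside the border, with scores of 3.93, 3.94, 2.16 and 3.24. The first siID4 summits inside the border were at 110013265 and, within Abca8a, at 110070781, 110076940 and 110086909, with scores of 2.91, 5.58, 3.64 and 2.81. Values just inside and just outside the border were thus of one size in the siID4 list. In the siNT list the last summit before the border lay in Prkca at 108101770 (score 17.7), and the first one inside it 1.90 Mb further on, at 110002719 (score 2.14).

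**Figure D1:**
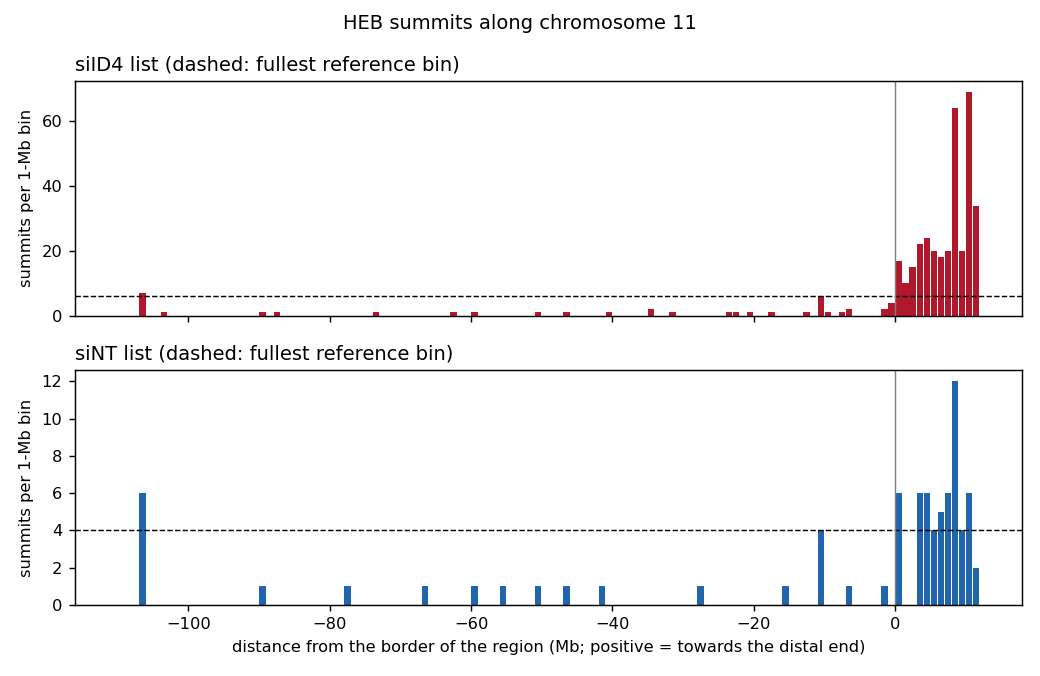
Number of HEB summits in each 1-Mb bin of chromosome 11 against the distance of the bin from the border of the stretch (Mb), siID4 above and siNT below on separate vertical scales; the dashed line is the fullest bin between 5 and 100 Mb. All 12 siID4 bins past the border stand above that line of 6, and 7 of the 12 siNT bins stand above theirs of 4.

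Within the stretch the summits were spread unevenly, with a sparse part from 111 to 113 Mb and, in siID4, 2 dense parts. The first Mb, from 110 to 111, held 17 siID4 and 6 siNT summits. In the siID4 list the bin from 118 to 119 Mb held 64 summits and the remainder from 120 Mb on held 103, or 53.5 per Mb (43.7 to 64.9). The Mb between them, from 119 to 120, held 20, close to the 20.8 per Mb (17.0 to 25.2) between 113 and 118 Mb. The siNT list shared the first dense part, with 12 summits from 118 to 119 Mb, its fullest bin. It had 8 summits from 120 Mb on, 14.0% of its 57, where the siID4 list had 30.9% of its 333. Between 111 and 113 Mb there were 25 siID4 summits and 0 siNT summits, which allows up to 1.84 per Mb. These differences in profile between the lists were not tested.

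Bins with more genes did not always hold more summits. The bin from 118 to 119 Mb, with 64 siID4 summits, holds the start of 11 protein-coding genes, and that from 115 to 116 Mb, with 20 siID4 summits, holds 43. The bin from 120 to 121 Mb is both rich in genes (46) and in siID4 summits (69).

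Neighbouring siID4 summits were a median of 18584 bp apart, with an interquartile range of 6157 to 39401 bp over 332 distances. On the assembled chromosomes other than 11 the median was 477691 bp. The closest pair lay 481 bp apart, and 81.3% of distances were under 50 kb and 36.1% under 10 kb, against 22.3% and 12.3% on the other chromosomes. In the siNT list the median of 56 distances was 110192 bp (interquartile range 44711 to 223555), and the closest pair lay 1902 bp apart. Of the siNT distances 5.36% were under 10 kb and 28.6% under 50 kb, against 10.4% and 19.0% on the other chromosomes. Close pairs were thus frequent in the siID4 list and few in the siNT list. The stretch holds 333 siID4 and 57 siNT summits, and more summits on the same length lie closer by construction. The lists were not matched for number here.

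Many siID4 summits came in short runs, counted without matching the lists for number. In that list 107 summits, 32.1% of the stretch, formed 24 runs of at least 3 in which each lay within 10 kb of the next; the siNT list had 0 such runs, and 51 of its 57 summits had no other within 10 kb. The longest run had 11 summits over 46.7 kb in Rbfox3, and another in Rbfox3 had 8 over 31.8 kb. A run of 8 over 22.7 kb ran through the end of Bahcc1 and past it. Runs of 6 spanned 16.8 kb ending inside Rfng and 20.2 kb in Ccdc57, and one of the runs of 5 lay in 10.8 kb of Ccdc57. In this order, scores within these runs had medians of 4.30, 4.52, 4.13, 4.05, 4.41 and 3.05. The median was 3.52 for the stretch and 4.31 for the whole siID4 list, and no summit of these runs scored above 10.5.

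The longest empty distance of both lists began at one shared site. In siID4 the longest was 490 kb, from 110768240 to 111258531, and held Kcnj16 and Kcnj2, which encode inwardly rectifying potassium channels. In siNT it was 2255 kb from almost the same base, 110768367, to 113023669, and also held Gm11677 and Sox9, the gene of a transcription factor of epithelial progenitors. The next in siID4 was 342 kb, up to 111784696, and the one after it, 303 kb, covered Sec14l1 and Septin9. The next in siNT, 979 kb from 114302098, covered 24 protein-coding genes, so empty distances were not confined to sequence poor in genes.

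**Figure D2:**
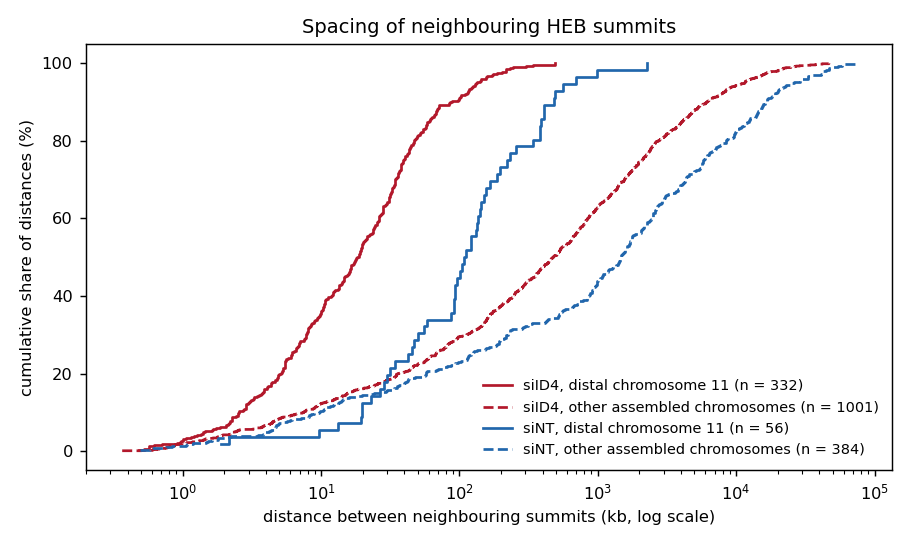
Cumulative share (%) of distances between neighbouring summits (kb, log scale) within each list, on distal chromosome 11 (solid) and on the other assembled chromosomes (dashed). The siID4 curve of the stretch reaches its median at 18.6 kb and the siNT curve at 110 kb, and at the medians both lie left of the curves for the other chromosomes; at short distances the siNT curve does not.

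A window of this length held fewer summits on every other chromosome. The fullest window of 11.9 Mb on another chromosome held 47 siID4 summits, on chromosome 15, and 21 siNT summits, on chromosomes 5 and 8. The average density was 27.9 siID4 summits per Mb (25.005 to 31.1) and 4.78 siNT summits per Mb (3.62 to 6.19) in the stretch. On the rest of chromosome 11 it was 0.364 and 0.200 per Mb, a ratio of 76.8 and 23.9. At a score of at least 5 the ratios were 34.6 (75 against 20 siID4 summits) and 9.22 (15 against 15 siNT summits), and at a score of at least 10 they were 6.71 (8 against 11) and 5.77 (5 against 8). The density ratio was thus smaller among higher scores in both lists.

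Of the 214 protein-coding genes of the stretch, 79 (36.9%) contained at least 1 siID4 summit and 20 (9.35%) an siNT summit, and 18 contained both. Over all 21887 protein-coding genes of the assembled chromosomes the shares were 1.96% and 0.713%; since the stretch was chosen for its density, nothing is read from that contrast. Most genes with an siID4 summit had 1 (57 genes), 10 had 2 and 12 had more. The 20 longest genes of the stretch held 102 of the 185 pairings of an siID4 summit with a gene. The median length was 24.9 kb for genes with an siID4 summit and 9.10 kb for genes without one. At an even density longer genes meet more summits by construction, so no preference for long genes is read from these values.

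Density per kb was also taken over classes of gene length. The stretch as a whole held 0.0279 siID4 summits per kb (0.0250 to 0.0311). Genes under 10 kb together held 0.0349 per kb (0.0207 to 0.0552), genes of 10 to 50 kb 0.0222 (0.0163 to 0.0295), genes of 50 to 100 kb 0.0264 (0.0182 to 0.0371) and the 10 genes of at least 100 kb 0.0397 (0.0318 to 0.0489). Without Rbfox3 the last value was 0.0293 (0.0219 to 0.0385), and the whole stretch without that gene held 25.9 siID4 summits per Mb. The excess of the longest class was thus smaller without Rbfox3, the gene with the most summits.

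Rbfox3, the gene of the neuronal splicing factor NeuN, had the most summits, 35 in siID4 and 8 in siNT inside its 422 kb. That is 0.0830 siID4 summits per kb (0.0578 to 0.115) and 0.0190 siNT summits per kb. The gene lies on the minus strand, and 23 of its siID4 and 5 of its siNT summits fell in the third of the gene body at its 5′ edge, position 118911597. The start that the promoter table gives for Rbfox3, 118761041, lies 151 kb inside that edge. These summits lay between that start and the edge, from 118779933 to 118905272 in siID4 and from 118794457 to 118905494 in siNT. Some in each list were thus closer to that start than to the edge of the annotated body. Ccdc57, which encodes a coiled-coil protein, followed with 16 siID4 summits in 106 kb, or 0.150 per kb (0.0860 to 0.244), and 1 siNT summit; the siID4 summits were spread over the gene, with 6, 4 and 6 in 3 equal parts of its body from the 5′ to the 3′ edge. Rbfox3 and Ccdc57 together contained 15.3% of siID4 and 15.8% of siNT summits of the stretch.

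By summits per kb the order was another. Among genes with at least 3 siID4 summits, Hgs, which encodes an endosomal sorting protein, held 4 in 16.4 kb, or 0.244 per kb (0.0665 to 0.625), all within 6.84 kb. Bahcc1, the gene of a chromatin protein with a BAH domain, held 6 in 59.4 kb, or 0.101 per kb (0.0371 to 0.220), 5 of them in the third at its 3′ edge. B3gntl1, of a glycosyltransferase family, held 5 in 57.0 kb, or 0.0878 per kb (0.0285 to 0.205). Of these, Bahcc1 had 1 siNT summit and Hgs and B3gntl1 had 0. The intervals of Hgs, Ccdc57, Bahcc1 and Rbfox3 lay above the interval of the whole stretch; these genes were picked by their counts, and short genes give wide intervals.

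The intervals of other genes with many summits included the average of the stretch. Slc39a11, a zinc transporter gene, held 8 siID4 and 2 siNT summits in 405 kb, or 0.0197 siID4 summits per kb (0.00852 to 0.0389). Sdk2, a gene of a neuronal adhesion protein, held 8 and 3 in 291 kb (0.0275 siID4 per kb, 0.0119 to 0.0542). Tbcd, which encodes a tubulin-folding cofactor, held 8 and 1 (0.0484, 0.0209 to 0.0954), 6 of the siID4 summits in the third at its 3′ edge, and Dnah17, an axonemal dynein gene, held 6 and 0 (0.0550, 0.0202 to 0.120). Their siID4 values ran from below the average of 0.0279 to above it, and wide intervals do not show that a gene is at it. Nploc4, a cofactor gene of protein degradation, held 4 siID4 summits (0.0691, 0.0188 to 0.177).

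Some long genes within the dense stretch held none. Septin9, a cytoskeletal septin gene of 163 kb, had 0 summits in either list, which allows up to 0.0227 siID4 summits per kb, below the interval of the stretch. Rnf213 (97.5 kb), Abca6 (77.1 kb), Baiap2 (66.9 kb) and Kcnj16 (59.9 kb) also had 0, but their upper limits, 0.0378 to 0.0615 per kb, do not separate them from the average. The 5 were taken as the longest genes without a summit.

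**Figure D3:**
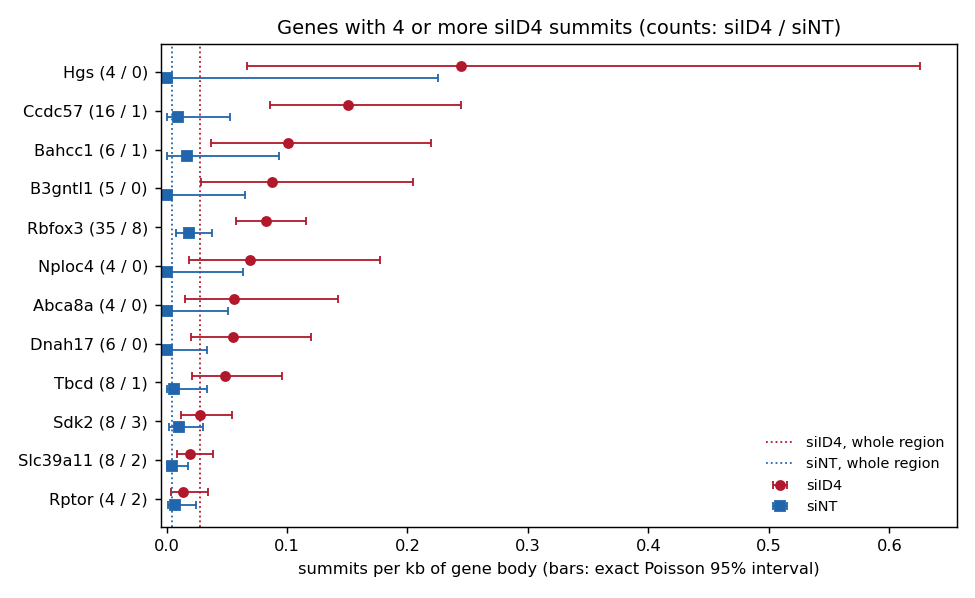
HEB summits per kb of gene body for the 12 genes with 4 or more siID4 summits, with exact Poisson 95% intervals; circles are siID4, squares siNT, and dotted lines the densities of the whole stretch. Hgs and Ccdc57 are highest in siID4, at 0.244 and 0.150 per kb, and Rptor is lowest at 0.0135.

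The counts by gene group stand beside 36.9% of all 214 genes with an siID4 summit, and no difference between groups was tested. Of 8 neuronal genes 6 contained an siID4 summit, 48 summits in all, of which Rbfox3 held 35 and Sdk2 8; Mgat5b, a brain glycosyltransferase gene, held 2 with scores up to 4.81 and Caskin2, a scaffold protein gene, 1 of score 3.93. Of 6 genes listed as epithelial 4 did: Evpl, Llgl2, Card14 and Unc13d. Evpl encodes the cornified envelope protein envoplakin (score 6.23). Llgl2 is a polarity gene (2 summits, highest score 2.81) and Card14 a keratinocyte signalling gene (2.23). Unc13d is a gene of vesicle release (2.22), so the list is a loose one. Itgb4, the hemidesmosome integrin gene, and Zfp750 had none. Of 4 ABC transporter genes, Abca8a held 4 siID4 summits (0.0556 per kb), and Abca9 and Abca5 1 each. The median length was 70.2 kb for the ABC transporter genes, 29.0 kb for the neuronal genes and 24.7 kb for the epithelial genes, against 12.6 kb over all 214 genes.

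None of the 6 genes grouped as transcription factors contained a summit of either list. They were Sox9, Foxj1, Foxk2, Mafg, Zfp750 and Cbx2, the last of which encodes a chromatin protein of the Polycomb group. These 6 genes cover 86.7 kb together, and 0 siID4 summits there allow up to 0.0425 per kb. A density equal to the average is thus not separated from none. Of 8 genes of RNA processing and translation, 1 contained an siID4 summit, Tnrc6c of the microRNA silencing complex (score 2.60). An siID4 summit lay in 4 of 10 cytoskeletal genes, with 17 summits in all (besides Tbcd and Dnah17, Cyth1 with 2 and Kif19a with 1), 6 of 11 metabolic and transport genes (among them Slc26a11, Slc16a3, Pycr1 and Slc38a10), 7 of 11 signalling genes, 2 of 7 CD300 receptor genes (Cd300c2 and Cd300lf) and 0 of 2 potassium channel genes. Among the signalling genes, Rptor, a subunit of the mTORC1 complex, held 4 siID4 and 2 siNT summits in 297 kb, and Grb2, Map2k6 and Timp2 each held 1 siID4 summit, with scores of 6.12, 2.14 and 4.32. Genes of the group of chromatin and histones with a summit were H3f3b and Bahcc1, 2 of 6.

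Position relative to genes was not used to choose the stretch, and was compared between the lists. Inside an annotated gene of any kind lay 211 of 333 siID4 summits (63.4%, 57.9 to 68.5) and 37 of 57 siNT summits (64.9%, 51.1 to 77.1), an odds ratio of 0.935 (0.491 to 1.74; two-sided Fisher's exact test, adjusted p = 0.882). Within 1000 bp of a gene end lay 9.61% and 10.5%, an odds ratio of 0.904 (0.349 to 2.78; two-sided Fisher's exact test, adjusted p = 0.882). The test compares these lists and not the treatments, and both lists share their inputs. It also counts each summit as independent, although 32.1% of the siID4 summits lay in runs and 11 sites were in both lists. Its intervals may therefore be too narrow. Neither share differed between the lists by more than counting error, but the intervals still allow odds ratios between 0.349 and 2.78. Genes cover 58.3% of the length of the stretch, and the 1000 bp on either side of gene ends cover 9.93%. Over all scores, both lists thus fell in these classes in shares close to those of the sequence itself. At a score of at least 5 the share inside genes was higher, 74.7% in siID4 and 66.7% in siNT. Above the list median it was 71.8% and 66.7%. These shares were not tested against the length covered by genes.

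Within 1000 bp of start sites both shares lay below that of the sequence, with intervals that include it. Of the siID4 summits 2.40% (1.04 to 4.68) lay within 1000 bp of a start in the promoter table and of the siNT summits 1.75% (0.0444 to 9.39), where 4.26% of the length does. The median distance to the nearest start was 16864 bp in siID4 and 17595 bp in siNT. Where a summit lay in a single protein-coding gene of known strand, the gene body was cut into 3 equal parts. Of 162 such siID4 summits 36.4% fell in the part at the 5′ edge, 22.8% in the middle and 40.7% in the part at the 3′ edge. Without Rbfox3 the shares were 28.3%, 24.4% and 47.2% of 127 summits, so Rbfox3 held many of those in the first part. Of 30 such siNT summits 14, 6 and 10 fell in the same parts. The promoter table holds 163 of the 214 genes.

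**Figure D4:**
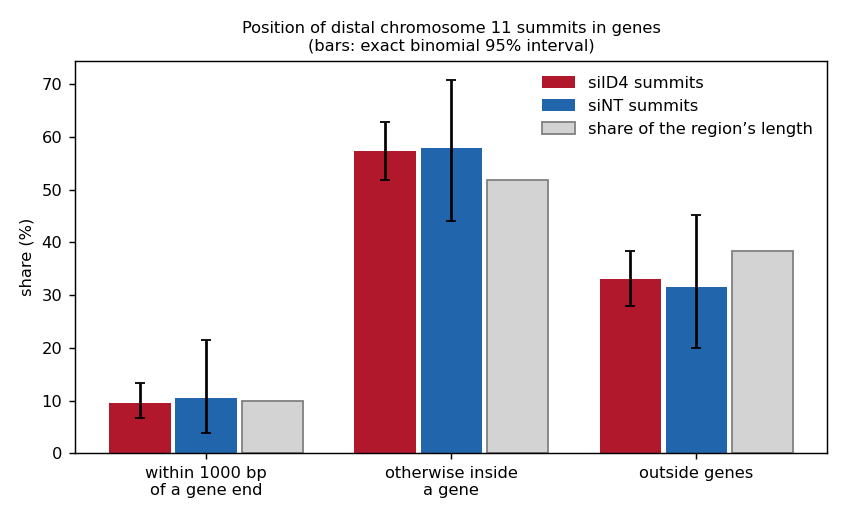
Share (%) of the summits of each list within 1000 bp of a gene end, otherwise inside a gene, or outside genes, with exact binomial 95% intervals, beside the share of the length of the stretch in each class (grey). The siID4 and siNT shares inside genes, 57.4% and 57.9%, stand beside 51.8% of the length, and those outside genes, 33.0% and 31.6%, beside 38.3%.

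Scores in the stretch were low and narrow in range, apart from H3f3b. The siID4 summits had a median score of 3.52 (interquartile range 2.40 to 4.93; lowest 1.31), and those elsewhere on assembled chromosomes 4.34 (2.71 to 8.53). The siNT summits had a median of 3.03 (2.25 to 5.01; lowest 1.45), against 7.15 (3.49 to 13.4) elsewhere. Of the siID4 summits of the stretch 2.40% (1.04 to 4.68) scored at least 10, and of those elsewhere 20.4% (18.0 to 22.9). For siNT the shares were 8.77% (2.91 to 19.3) and 36.9% (32.3 to 41.6). After H3f3b at 286 and 190, the next scores were 22.8 in siID4 and 26.2 in siNT, so 1 site stood far above all others of the stretch.

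Dense and isolated summits scored alike within the siID4 list. The 181 siID4 summits with another within 10 kb had a median score of 3.54 and the 152 without one 3.35. Those inside genes had a median of 3.57 and those outside 3.10, at percentiles of 41.1 (35.7 to 46.7) and 33.8 (28.4 to 43.8) of the list, intervals that overlap. Equal scores recurred: 142 siID4 summits of the stretch (42.6%) had exactly the score of another row of the list, and 8 of them the value 2.81; elsewhere on assembled chromosomes 59.9% did.

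The higher-scoring sites after H3f3b were few and mostly outside gene starts. The second in both lists was a site 9842 bp upstream of the start of Timp2, which encodes an inhibitor of matrix metalloproteinases, with scores of 22.8 in siID4 and 26.2 in siNT at summits 84 bp apart. In siID4 there followed 116219075, inside Cdk3 and 1484 bp from Evpl (score 20.8), 116418410, 5019 bp from the ubiquitin ligase gene Rnf157 (15.02), and 120176099, 24748 bp from the amino acid transporter gene Slc38a10 (11.01). The sixth lay inside the non-coding gene Gm31724 (10.6), the seventh 911 bp from Hmga1b (10.5), and the next 3 in Rbfox3 (10.2, 9.51 and 9.07). Of these 10, the sites at H3f3b, near Timp2 and 1 in Rbfox3 had an siNT summit within 200 bp.

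In siNT the third was inside Mxra7, a matrix-remodelling-associated gene (score 17.6), with an siID4 summit 42 bp away (score 8.02). The fourth lay inside Bahcc1 (15.6), 13392 bp from the nearest siID4 summit although that gene holds 6, and the fifth 5865 bp from Socs3, a suppressor of cytokine signalling (11.2), 49007 bp from the nearest siID4 summit. High scores in one list were therefore not always matched in the other.

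**Figure D5:**
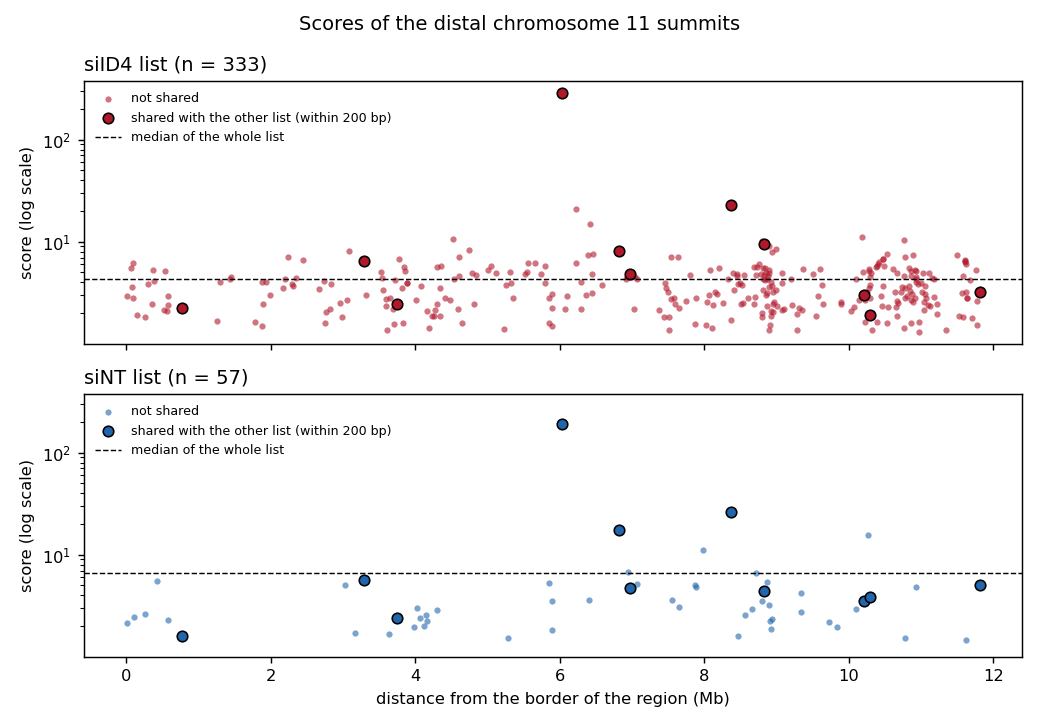
Score of each summit (log scale) against its distance from the border of the stretch (Mb), siID4 above and siNT below; outlined points have a summit of the other list within 200 bp and the dashed line is the median of the whole list. Most points lie below that line in both lists, and the H3f3b site stands alone at 286 and 190.

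Few sites coincided between the lists: 11 pairs lay within 200 bp, that is 3.30% of siID4 summits (1.66 to 5.83) and 19.3% of siNT summits (10.0 to 31.9). Elsewhere on assembled chromosomes the shares were 20.5% (18.2 to 23.1) and 51.2% (46.3 to 56.0); this contrast was known when the stretch was chosen and was not tested. Besides H3f3b, Timp2, Mxra7 and Rbfox3 (siID4 score 9.51, siNT 4.44), the pairs lay inside Slc39a11 (6.47 and 5.63), Mgat5b (4.81 and 4.68) and Cdc42ep4, a gene of a Cdc42 effector (2.48 and 2.38). Others lay 20895 bp (3.01 and 3.50) and 982 bp (1.91 and 3.90) from Bahcc1, 19532 bp from Ptchd3 near the chromosome end (3.19 and 5.01), and at 110768240 with no protein-coding gene within 100000 bp (2.22 and 1.61). Of the 11 siID4 scores 6 were under 5, so coincidence was not limited to high scores. Shared summits still had the higher median score, 4.81 against 3.49 for those not shared in siID4, and 4.68 against 2.81 in siNT. In siID4 these medians stood at percentiles of 56.7 (17.4 to 93.7) and 38.4 (33.2 to 43.4), intervals that overlap, and the difference was not tested.

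At wider distances most siNT summits had an siID4 neighbour. Of the 57, 33.3% had one within 1000 bp, 50.9% within 5000 bp and 94.7% within 50 kb, with a median of 4779 bp. In the siID4 list 53.5% had an siNT summit within 50 kb, with a median of 43114 bp. The siID4 list is the longer one and crowded itself, and the lists were not matched for number here. The 8 siNT summits inside Rbfox3 scored between 2.25 and 6.61, and the 3 nearest the 5′ edge of its body lay 222, 581 and 255 bp from an siID4 summit, just beyond the 200 bp used for a pair or further.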

How the data were processed

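HEB ChIP-seq summit lists of 2 arms (3 libraries each, with 4 shared inputs) were used. The authors deposited 1 list per siRNA holding 1-bp positions, peak names and scores. Judging by layout and lowest values, these scores are −log10 q values of the authors' peak caller, and they serve here only to rank within a list. Per the submitters' processing notes, mm10 and SAMtools were used. How reads were aligned, peaks called and libraries combined is not given in the sources used here. Peak numbers run without a break in the stretch (213 to 545 in siID4, 76 to 132 in siNT).

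Gene bodies were taken from RefSeq (GRCm38.p6), and strand and starts from its promoter table. The stretch was measured from the border to the last annotated gene end at 121925328. Densities carry exact Poisson and shares exact binomial (Clopper-Pearson) 95% intervals; medians of percentiles carry binomial order-statistic intervals. Position in genes was compared by two-sided Fisher's exact tests adjusted by Benjamini-Hochberg over 2 tests. Python 3.11.15, SciPy 1.17.1 and pandas 2.3.3 were used, and the functions were tested on simulated positions.

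Named genes were the 10 with the most siID4 and 5 with the most siNT summits, the 5 densest with at least 3, those at the 10 highest siID4 and 5 highest siNT scores (nearest gene within 100000 bp), those at shared sites (within 200 bp), the 5 longest without a summit, and up to 4 per gene list. Myo15b also met the rule, with 1 siID4 and 2 siNT summits. The members, lists and rules were chosen with earlier results of these data known. The result of 1 gene list is not reported here.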

Additional observations from a re-analysis of the deposited data

How the results depend on the processing

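Of 53 recomputed values 36 stayed within counting error, within 1.5 times for counts, or on the same side of the test with the same sign. For the start of the crowding, the siID4 alternative that gave no start and all siNT alternatives are not among the 53. The densities, 27.9 siID4 and 4.78 siNT summits per Mb, were 6.29 and 1.26 at a score of at least 5, 9.81 and 0.503 above the list median, and 20.03 and 3.43 with the border 5 Mb earlier. The median distances of 18.6 and 110 kb became 73.2 and 366 kb at a score of at least 5, and 52.5 and 792 kb above the list median; fewer summits enter there by construction. Genes with a summit fell from 79 to 25 in siID4 and from 20 to 9 in siNT at a score of at least 5. The start at 110 Mb moved to 113.5 Mb with bins of 500 kb, and at a score of at least 5 the rule found no start in siID4. The share within 1000 bp of gene ends, siID4 minus siNT, was 8.55 percentage points above the list median and 0.199 without the gene body of Rbfox3, an alternative chosen after seeing the data. The share inside genes differed by 8 points at a score of at least 5 and 5.13 above the list median. These 4 differences had the opposite sign to those reported, and the cause was not tested; none of the 14 alternatives passed Fisher's exact test (adjusted p from 0.642 to 1). No paired analysis was possible because the libraries of each siRNA share 1 list, which also prevents leaving out a replicate. The unknown depth limits all comparisons of scores to within a list.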
